A study of Mus musculus with 20 samples.

Results

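Genes that release, sense and degrade extracellular nucleotides were followed through the series. There were 9 of them, chosen by name from the 21509 protein-coding genes of the deposited tables. They were the pannexin Panx1, the connexins Gja1 and Gjb2, the ATP-gated channels P2rx4 and P2rx7, the nucleotide receptor P2ry2, the adenosine receptor Adora2b, and the surface enzymes Entpd2 and Nt5e. They were picked from the tables by symbol, not by a threshold on any value.

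Cells under mechanical load can release ATP through pannexin and connexin hemichannels. Outside the cell, ATP opens P2X channels and activates P2Y receptors such as P2ry2, which acts through Gq proteins to release calcium from the endoplasmic reticulum. Ectonucleotidases such as Entpd2 shorten ATP, and Nt5e converts AMP to adenosine, which binds receptors such as Adora2b. In the epididymis, luminal nucleotides and adenosine are known to act on the epithelium as local signals.

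RNA-seq was carried out on DC2, an immortalized cell line from principal cells of the distal caput of the mouse epididymis, in 2 experiments. In the first, 6 libraries came from cells sheared by fluid for 3 h at 1 dyn/cm2 (flow) and 6 from cells held without flow for the same time (static). In the second, 4 libraries came from cells transfected with siRNAs against Ift88, a gene needed to build primary cilia, and 4 from cells given a scrambled control siRNA. By the study's methods all cells were serum-starved in microfluidic channels, and both siRNA groups were exposed to flow, which their labels do not say.

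All groups came from a single line, so that the libraries are repeats of one cell source. The labels do not say whether they were separate cultures, and p-values measure the spread between these libraries, which may be technical. In bulk libraries of this kind, fewer cells expressing a gene and less RNA per cell cannot be told apart. The library used as flow replicate 6 is titled as flow, but its treatment is labelled static. Its level of Ccn2, a gene that responds to shear, was 761 TPM, the highest of the 12.

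The values are TPM (transcripts scaled to a common total), which are corrected for transcript length and sum to the same value in every library. Between 15292 and 16682 genes were above 0 per library, and TPM hold no read total, so the depth behind each value is unknown. Ift88 was at 4.21, 4.08, 4.15 and 4.12 TPM in the control siRNA libraries and at 1.71, 1.27, 1.28 and 0.917 TPM in the Ift88 siRNA libraries. Ccn2 ranged from 233 to 761 TPM under flow and from 39.1 to 92.2 TPM in static cells. Of 6 markers of differentiated principal cells, including Aqp9 at a mean of 0.171 TPM in the flow experiment, all 6 had means under 1 TPM in every group. Krt18 was at means of 52.1 and 144 TPM in the flow and siRNA experiments, whereas Epcam was at 0.0638 and 0.0587 TPM. The leukocyte genes Ptprc and Adgre1 had means under 0.03 TPM in both experiments, while Cd68 of the same list was at 21.4 and 93.8 TPM.

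The level of the 9 genes spanned from near 0 for Gjb2 to the 93.7th and 97.0th percentile of all genes for P2rx4 in the flow and siRNA experiments. In the flow experiment the order by mean over 12 libraries was P2rx4 (120 TPM), Gja1 (30.4 TPM), Entpd2 (17.9 TPM), P2rx7 (6.32 TPM), Adora2b (3.39 TPM), Panx1 (3.14 TPM), Nt5e (2.52 TPM), P2ry2 (1.41 TPM) and Gjb2 (0.00744 TPM). P2rx4 lay above every other member in each library, and Gjb2 below, while the ranges of all other neighbours in this order overlapped. In the siRNA experiment the order over 8 libraries was P2rx4 (296 TPM), Gja1 (48.6 TPM), Entpd2 (14.4 TPM), Adora2b (10.8 TPM), P2ry2 (5.11 TPM), P2rx7 (4.33 TPM), Nt5e (2.69 TPM), Panx1 (2.53 TPM) and Gjb2 (0.0150 TPM). There the ranges of P2rx4, Gja1 and Entpd2 did not overlap each other, nor did those of Adora2b and P2ry2 or of Panx1 and Gjb2, and the other neighbours overlapped.

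**Figure D1:**
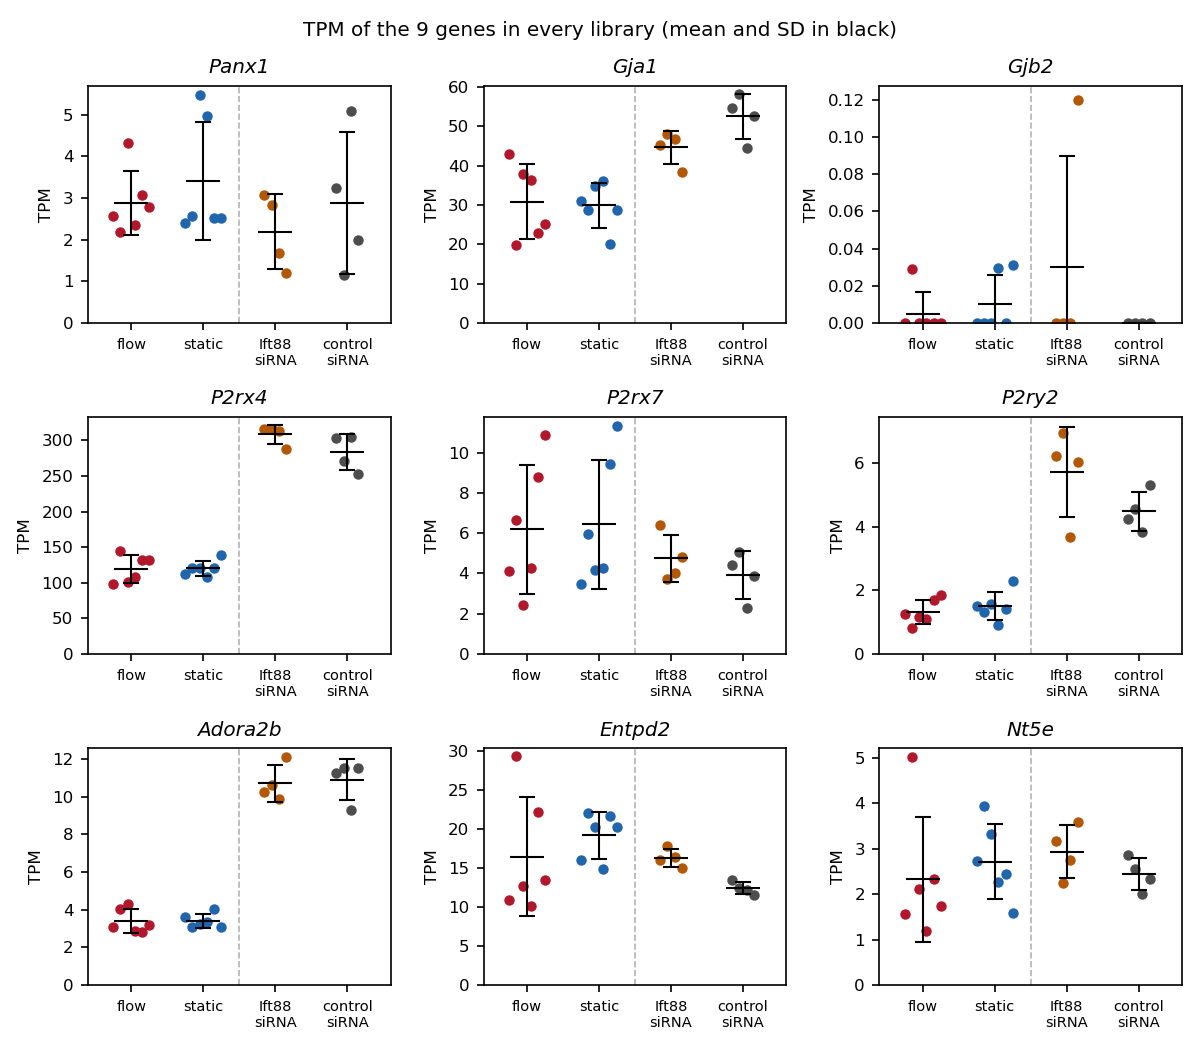
TPM (y axes, linear, each gene on its own scale) of the 9 genes in each library of the 4 groups, with the mean and SD in black; the dashed line separates the experiments, which were quantified apart. The Entpd2 points of Ift88 siRNA all lie above those of control siRNA, and Gjb2 is at 0 in 16 of 20 libraries.

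The promoters of 3 members are shown. P2rx4 and P2rx7 are neighbours on chromosome 5 that are read in the same direction, with 16111 bp between them, and differ widely in level. Entpd2 was the member whose siRNA groups did not overlap. Each line gives the 250 bases before the RefSeq start site (GRCm38.p6, plus strand), with capitals marking matches on either strand to an AP-1 motif (TGANTCA), a GC box (GGGCGG) or a TEAD motif (CATTCC). P2rx4 spans chr5:122707294-122707543, P2rx7 spans chr5:122643677-122643926 and Entpd2 spans chr2:25395624-25395873. For P2rx7, 2 promoters were listed, and only the window shown was scored. It ends past the gene start given below, which comes from another annotation.
P2rx4: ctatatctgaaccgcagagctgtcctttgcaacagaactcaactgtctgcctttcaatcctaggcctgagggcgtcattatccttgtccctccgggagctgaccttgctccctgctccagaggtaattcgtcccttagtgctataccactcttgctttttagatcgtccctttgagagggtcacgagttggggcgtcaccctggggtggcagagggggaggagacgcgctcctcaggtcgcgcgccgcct
P2rx7: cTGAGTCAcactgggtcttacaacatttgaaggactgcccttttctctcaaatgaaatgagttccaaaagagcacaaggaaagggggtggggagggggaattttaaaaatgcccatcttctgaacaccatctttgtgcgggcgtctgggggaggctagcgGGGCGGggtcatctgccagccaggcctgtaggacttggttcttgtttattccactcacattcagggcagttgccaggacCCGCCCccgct
Entpd2: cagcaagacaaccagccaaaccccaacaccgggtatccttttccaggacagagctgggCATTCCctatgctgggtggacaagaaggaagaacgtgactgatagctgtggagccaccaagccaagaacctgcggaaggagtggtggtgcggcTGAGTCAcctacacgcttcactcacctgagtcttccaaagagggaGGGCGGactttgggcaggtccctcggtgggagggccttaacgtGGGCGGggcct
The windows of P2rx7 and Entpd2 each held 1 AP-1 match and 2 GC boxes, with the AP-1 match of Entpd2 at 99 to 93 bases before the start. Entpd2 also held 1 TEAD match, and the P2rx4 window held no match to any of the motifs searched, which included a CRE (TGACGTCA) and a TATA box (TATAAA). Over 32851 mouse promoters of the same length, 6.75% held the AP-1 motif, 32.7% a GC box, 12.6% the TEAD motif, 1.55% a CRE and 12.4% a TATA box. P2rx4 had 13 CpG pairs in its window, Entpd2 had 9 and P2rx7 had 6, against a median of 6 over all promoters. A letter match describes the sequence and does not show that a factor binds there.

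Panx1 forms large channels in the plasma membrane that let ATP pass, and lies on chromosome 9 at 15002128 to 15045478 (minus strand, GRCm38). Its lowest, median and highest values were 2.19, 2.67 and 4.32 TPM under flow and 2.40, 2.54 and 5.47 TPM in static cells. The groups overlapped over most of their range, and the log2 fold change was -0.15 (SE 0.19). In the siRNA experiment Panx1 was at 3.06, 2.83, 1.69 and 1.20 TPM with Ift88 siRNA and at 3.24, 1.16, 5.09 and 2.00 TPM with control siRNA. The control libraries alone covered the whole range of the Ift88 siRNA libraries, and the interval of the log2 fold change ran from -0.84 to 0.41.

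The Lrrc8 channel subunits were more abundant than Panx1. Of 15 genes for routes of ATP and nucleotide release, Panx1 among them, 8 averaged 1 TPM or more in the flow experiment and 7 in the siRNA experiment. The highest was Lrrc8b in the flow experiment (32.6 TPM) and Lrrc8a in the siRNA experiment (147 TPM), both subunits of volume-regulated anion channels that can pass nucleotides. Panx1 made up 2.74% of the summed TPM of the 15 genes in the flow experiment and 0.845% in the siRNA experiment. None of those tested, 8 and 7, was called. Lrrc8a, named after its values were seen, was the only 1 of them with an unadjusted p under 0.05 in the flow comparison (log2 fold change 0.29, SE 0.12, limma adjusted p = 0.998, higher in 5 of 6 same-numbered pairs).

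Gja1 encodes connexin 43, the most widely expressed connexin of gap junctions and hemichannels, and lies on chromosome 10 at 56377330 to 56402513 (plus strand, GRCm38). Flow libraries had 19.8, 30.8 and 43.0 TPM as lowest, median and highest value, and static libraries 20.1, 29.9 and 36.1 TPM. The means differed by far less than the spread within either group, with a log2 fold change of 0.01 (95% interval -0.40 to 0.42). With Ift88 siRNA, Gja1 was at 45.4, 48.0, 46.7 and 38.4 TPM. With control siRNA it was at 54.7, 58.3, 44.6 and 52.5 TPM. All control libraries but replicate 3 lay above all Ift88 siRNA libraries, and replicate 3 lay within their range. The log2 fold change was -0.23 (SE 0.095, unadjusted p = 0.0316), and it did not pass after adjustment over all genes (limma adjusted p = 0.31).

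Gjb2 encodes connexin 26 and lies on chromosome 14 at 57098600 to 57104702 (minus strand, GRCm38). It was listed at 0 in 9 of 12 libraries of the flow experiment and in 7 of 8 of the siRNA experiment, with a highest value of 0.120 TPM in Ift88 siRNA replicate 4. Its mean was below the 1 TPM needed for testing, so it was left out of the main comparisons, and with most libraries at 0 no fold is given.

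In all, 7 of 20 connexins averaged 1 TPM or more in the flow experiment and 5 in the siRNA experiment, and none of these, which were the ones tested, was called. Gjc1 (connexin 45), named after its values were seen, was at 23.2, 22.3, 22.2 and 20.8 TPM with Ift88 siRNA and at 31.2, 25.6, 30.5 and 27.2 TPM with control siRNA. These groups did not overlap, and the log2 fold change was -0.35 (SE 0.086), which did not pass after adjustment (limma adjusted p = 0.0905). Under flow the log2 fold change of Gjc1 was -0.11 (95% interval -0.28 to 0.06).

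**Figure D2:**
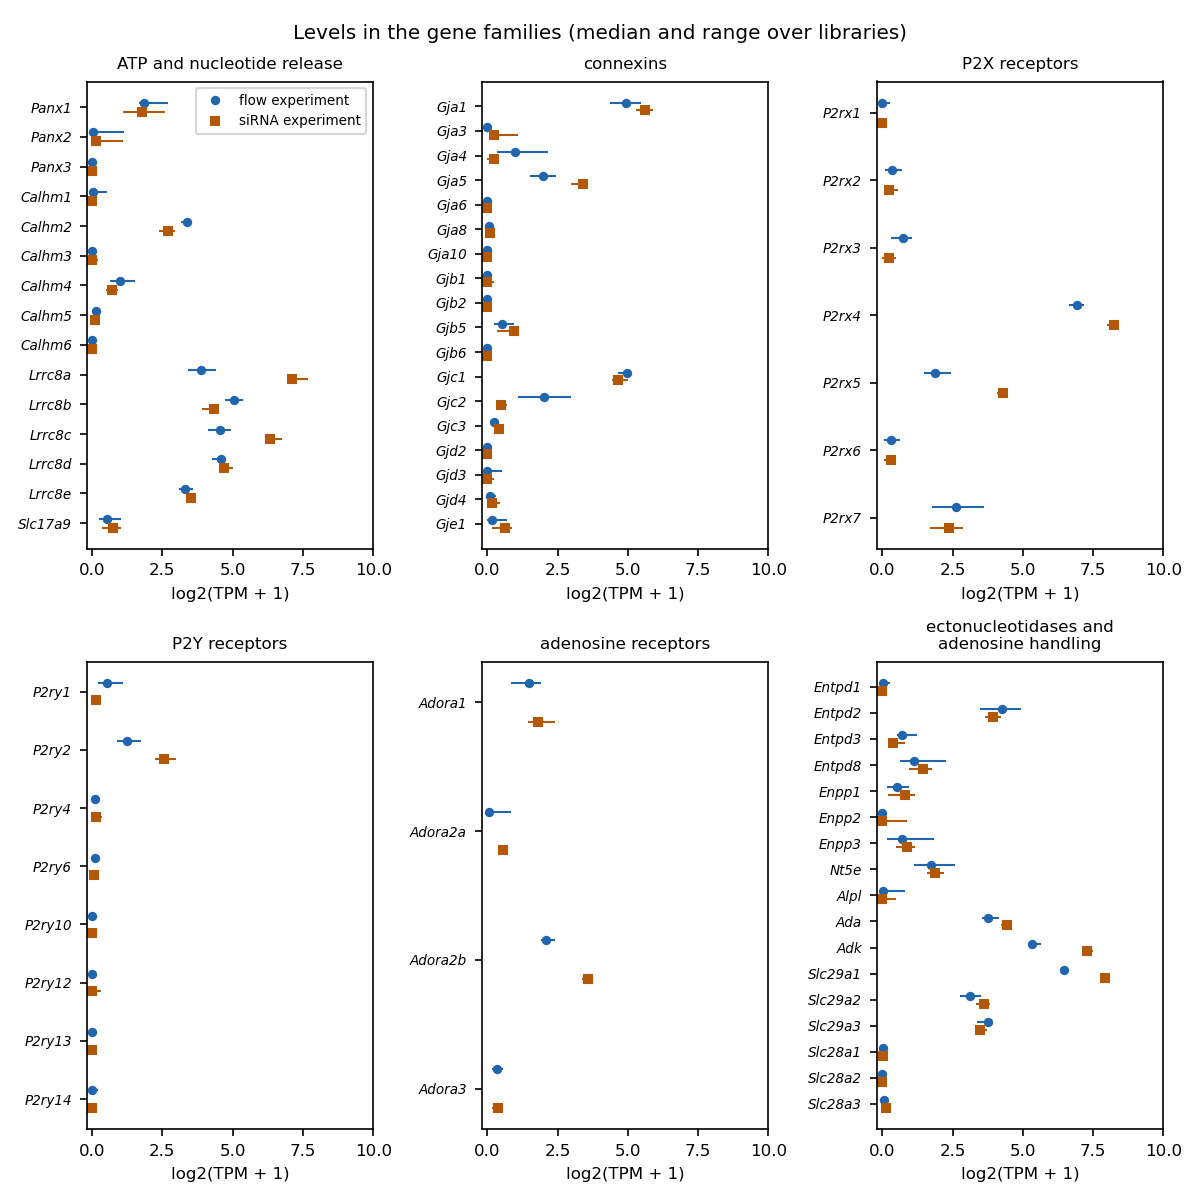
Levels of the pathway genes reported here as log2(TPM + 1) (x axes), 1 panel per family, with the median as a point and the range over libraries as a line for the flow experiment (12 libraries) and the siRNA experiment (8 libraries). P2rx4, P2ry2 and Adora2b lead their families in both, and Gjb2 has a median of 0.

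P2rx4 encodes an ATP-gated cation channel of the plasma membrane and lysosomes, and lies on chromosome 5 at 122707544 to 122729738 (plus strand, GRCm38). Flow libraries ranged from 97.9 to 145 TPM with a median of 120 TPM, and static libraries from 107 to 139 TPM with a median of 121 TPM. The static range lay inside the flow range. At -0.02, its log2 fold change had a 95% interval from -0.24 to 0.19, the narrowest of the members. With Ift88 siRNA, P2rx4 was at 315, 316, 313 and 288 TPM, and with control siRNA at 303, 272, 305 and 253 TPM. All Ift88 siRNA libraries but replicate 4 lay above all control libraries, and the log2 fold change was 0.13 (SE 0.068, limma adjusted p = 0.44). A weight per library gave 0.16 (95% interval 0.02 to 0.29). Blocking on the replicate number gave 0.13 (95% interval 0.008 to 0.24). P2rx4 did not pass after adjustment in either of these fits.

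P2rx7 encodes the ATP channel that opens at high ATP levels, and lies on chromosome 5 at 122643911 to 122691432 (plus strand, GRCm38). In replicates 1 to 6 it was at 4.14, 6.65, 2.44, 4.26, 8.81 and 10.9 TPM under flow, and at 3.46, 5.96, 4.18, 4.28, 9.44 and 11.3 TPM in static cells. Replicates 5 and 6 were the highest in both groups. The replicate number took 94.8% of the spread of P2rx7 over the 12 libraries (sum of squares of log2(TPM + 1)) and flow 0.329%, while over all genes tested these shares had medians of 70.0% and 3.85%. The log2 fold change under flow was -0.07, with SE 0.32, or SE 0.11 when same-numbered libraries were paired. With Ift88 siRNA, P2rx7 was at 6.40, 3.75, 4.04 and 4.80 TPM, and with control siRNA at 4.41, 5.09, 2.27 and 3.88 TPM. These groups overlapped, at a log2 fold change of 0.24 (SE 0.20).

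P2rx4 made up 92.1% of the summed TPM of the 7 P2X genes in the flow experiment and 92.8% in the siRNA experiment. It exceeded P2rx7 by a mean of 22.6-fold over the 12 flow and static libraries, from 12.1-fold to 41.3-fold. In the siRNA libraries the ratio was 74.1, from 49.3 to 135, so that the ranges of the 2 experiments did not overlap. Of the 7 P2X genes, 3 reached a mean of 1 TPM in each experiment, and none of these was called in either comparison.

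P2ry2 encodes a Gq-coupled receptor for ATP and UTP, and lies on chromosome 7 at 100996568 to 101012866 (minus strand, GRCm38). It was the only 1 of 8 P2Y genes that averaged 1 TPM or more, and took 67.2% and 93.8% of their summed TPM in the flow and siRNA experiments. Its lowest, median and highest values were 0.832, 1.21 and 1.85 TPM under flow and 0.919, 1.46 and 2.30 TPM in static cells. These ranges largely coincided, at a log2 fold change of -0.11 (SE 0.15). With Ift88 siRNA it was at 6.23, 6.94, 3.69 and 6.05 TPM, and with control siRNA at 4.25, 4.55, 3.84 and 5.30 TPM. Ift88 siRNA replicate 3 was the lowest of all 8 libraries and the other 3 the highest, with a log2 fold change of 0.27 (95% interval -0.08 to 0.63).

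Downstream of Gq-coupled P2Y receptors, 14 of 16 genes for Gq proteins, phospholipase C, calcium release and store refilling were tested in each experiment. None of the 14 was called in either, and their median log2 fold changes were -0.04 under flow and -0.06 with Ift88 siRNA. The highest was Atp2a2, the calcium pump of the endoplasmic reticulum, in the flow experiment (272 TPM) and Gna11, a Gq-class alpha subunit, in the siRNA experiment (332 TPM).

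Adora2b encodes a low-affinity adenosine receptor that raises cyclic AMP, and lies on chromosome 11 at 62248984 to 62266453 (plus strand, GRCm38). Under flow its values ran from 2.80 to 4.32 TPM with a median of 3.14 TPM, and in static cells from 3.08 to 4.06 TPM with a median of 3.30 TPM. These ranges overlapped, at a log2 fold change of -0.01 (95% interval -0.26 to 0.23). With Ift88 siRNA it was at 10.3, 10.6, 9.85 and 12.1 TPM, and with control siRNA at 11.3, 11.5, 9.28 and 11.5 TPM. The groups overlapped, with a log2 fold change of -0.02 (95% interval -0.25 to 0.21). Adora2b took 60.2% of the summed TPM of the 4 adenosine receptors in the flow experiment and 76.6% in the siRNA experiment, and neither it nor Adora1, the only other 1 above the filter, was called.

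Entpd2 encodes an ectonucleotidase that prefers ATP and leaves ADP, and lies on chromosome 2 at 25395874 to 25401321 (plus strand, GRCm38). The annotation has 1971 bp shared with Npdc1 on the same strand, so the assignment of reads to either is uncertain there. In replicates 1 to 6, Entpd2 was at 10.95, 29.4, 12.7, 10.1, 22.3 and 13.5 TPM under flow, and at 16.1, 22.1, 20.3, 14.8, 21.7 and 20.3 TPM in static cells. Flow libraries 2 and 5 lay above all static libraries and the other 4 below all static libraries. Its log2 fold change was -0.30 (95% interval -0.77 to 0.18, limma adjusted p = 0.998). Blocking on the replicate number gave an unadjusted p of 0.0445 and a limma adjusted p of 0.44, with flow lower in 4 of 6 pairs. A weight per library gave -0.60 and a limma adjusted p of 0.0687.

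Without replicate pair 2, an alternative chosen after seeing the data, Entpd2 differed by -0.44 on the log2 scale (SE 0.099) with the block and had a limma adjusted p of 0.0221, or 0.739-fold, which is inside the 1.5-fold limit. Without the block, the same libraries gave an adjusted p of 0.47. It was the 1 of the 8 members tested below an adjusted p of 0.05 in that blocked fit, where 8.68% of all genes were. Npdc1, which shares bases with Entpd2, was at -0.24 with an adjusted p of 0.0223 in the same fit.

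In the siRNA experiment, Entpd2 was at 16.01, 17.9, 16.4 and 14.99 TPM with Ift88 siRNA and at 13.5, 12.5, 12.2 and 11.6 TPM with control siRNA. Every Ift88 siRNA library lay above every control library. The log2 fold change was 0.36 (SE 0.093), or 1.29-fold (95% interval 1.12 to 1.48), with an unadjusted p of 0.00182 and a limma adjusted p of 0.11. It did not pass in this fit. With a weight per library the log2 fold change was 0.40 and the adjusted p 0.0375, still inside the 1.5-fold limit, and Entpd2 was then the 1 member of 8 below 0.05, where 1.86% of all genes were. Npdc1 was at 0.14 (limma adjusted p = 0.44) in the main comparison.

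Nt5e encodes CD73, the enzyme that forms adenosine at the cell surface, and lies on chromosome 9 at 88327197 to 88372092 (plus strand, GRCm38). In replicates 1 to 6 it was at 1.56, 5.02, 2.13, 1.20, 2.34 and 1.74 TPM under flow, and at 2.74, 3.93, 3.33, 2.28, 2.44 and 1.59 TPM in static cells. Flow replicate 2 held the highest value of the 12, and the log2 fold change was -0.21 (SE 0.22). Without that library it was -0.40, with an unadjusted p of 0.0381 and a limma adjusted p of 0.34, and a weight per library gave -0.57 with an adjusted p of 0.0901. With Ift88 siRNA, Nt5e was at 3.17, 2.24, 2.74 and 3.59 TPM, and with control siRNA at 2.87, 2.55, 2.02 and 2.33 TPM. The groups overlapped, at a log2 fold change of 0.19 (95% interval -0.13 to 0.50).

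Of 17 genes for ectonucleotidases and adenosine handling, 8 averaged 1 TPM or more in each experiment, and none of these was called in either comparison. The highest in both was Slc29a1, an equilibrative nucleoside transporter, at 88.8 and 242 TPM. Entpd2 took 9.56% and 3.09% of their summed TPM in the flow and siRNA experiments, and Nt5e 1.35% and 0.580%.

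Taking the members side by side, 8 of the 9 were tested in each comparison and none was called at an adjusted p under 0.05 and more than 1.5-fold by limma in either. In the flow comparison 0.105% of 11388 genes were called. None of the 8 had an unadjusted p under 0.05 there, which 3.85% of all genes had, and none had groups that did not overlap, which 0.544% had. In the fit blocked on the replicate number, 0 of 8 members were called, against 0.597% of all genes, and 1 (Entpd2) had an unadjusted p under 0.05, against 11.1%. In the siRNA comparison 0.223% of 11209 genes were called. An unadjusted p under 0.05 was found for 2 of 8 members (Entpd2 and Gja1), against 13.9% of all genes, and groups did not overlap for 1 (Entpd2), against 8.58%.

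The members' median log2 fold change was -0.09 under flow, against -0.03 over all genes tested, with 7 of 8 below 0. With Ift88 siRNA it was 0.16, against 0.02, with 5 of 8 above 0. The 95% intervals of the members ran from 0.586-fold to 1.53-fold under flow and from 0.560-fold to 1.59-fold with Ift88 siRNA. The widest intervals thus reached past 1.5-fold in both directions. In the fit blocked on the replicate number, the flow intervals ran from 0.667-fold (Entpd2) to 1.19-fold (Gja1). Of all 87 pathway genes, 43 were tested in the flow comparison and 40 in the siRNA comparison, and none was called in either by limma. Unadjusted p-values under 0.05 were found for 1 and 5 of them, against 3.85% and 13.9% of all genes tested.

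**Figure D3:**
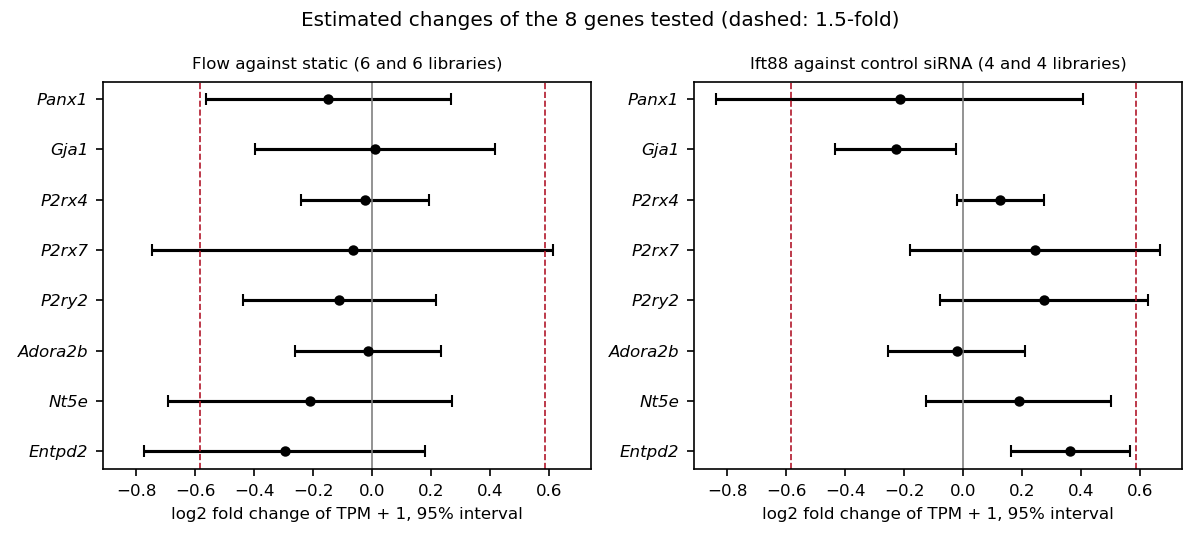
Log2 fold change of TPM + 1 (x axes) with its 95% interval for the 8 members tested, for flow against static and for Ift88 siRNA against control siRNA; dashed lines mark 1.5-fold. All flow intervals include 0, and with Ift88 siRNA those of Entpd2 and Gja1 do not.

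Flow replicate 2 held the highest or the lowest flow value for 6 of the 8 members tested. It was highest for P2rx4, Nt5e and Entpd2 and lowest for Panx1, Gja1 and P2ry2. Within pairs, its change from static replicate 2 was 0.40 for Entpd2 and -0.52 for Gja1 on the log2 scale. In the other 5 pairs, Entpd2 changed by -0.51, -0.63, -0.51, 0.04 and -0.56. The Gja1 changes of these pairs were 0.46, 0.12, 0.01, 0.18 and -0.19. The same library also had the lowest Ccn2 of the 6 flow libraries. This library was not apart for the members alone. Without it, calls over all genes were 76 higher and 11 lower, against 12 higher in the main fit. The share of all genes with an extreme value in it was not counted. What sets it apart was not tested.

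**Figure D4:**
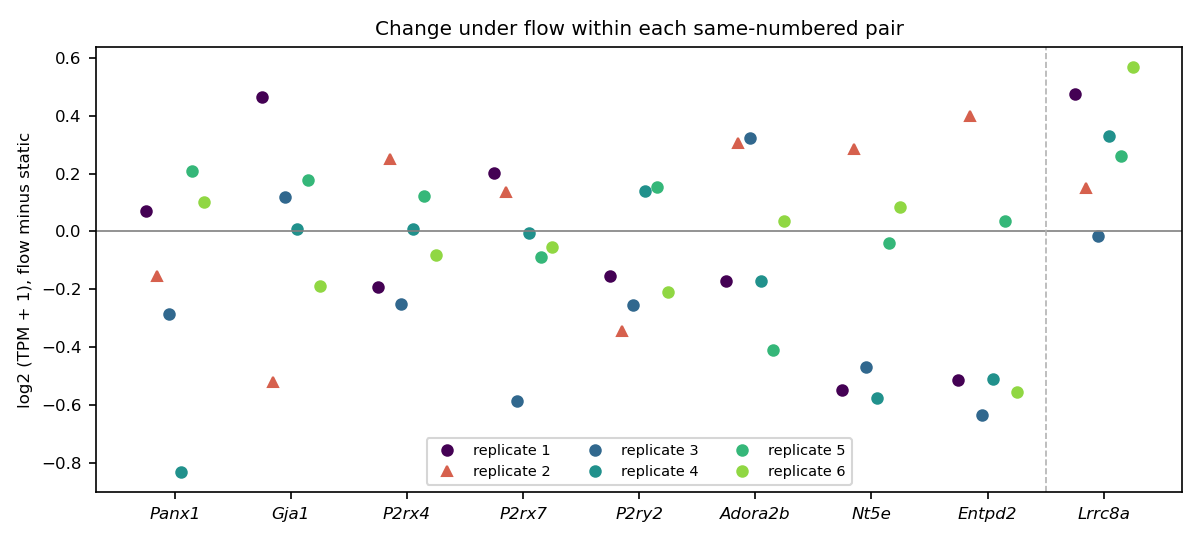
Flow minus static difference of log2(TPM + 1) (y axis) within each same-numbered pair for 8 members and, right of the dashed line, Lrrc8a; replicate 2 is drawn as a triangle. Entpd2 is below 0 in 4 pairs and Lrrc8a is above 0 in 5.

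Several members varied together over the 12 flow and static libraries, which is a description over points that share replicate numbers. Pearson's r of log2(TPM + 1) was 0.79 between P2rx4 and P2rx7, -0.82 between Gja1 and P2rx4, and -0.76 between Gja1 and Entpd2. Over the 8 siRNA libraries the same values were -0.04, -0.39 and -0.42. Nt5e and Entpd2 had r of 0.79 and 0.34 in the flow and siRNA experiments. P2rx4 and Entpd2 had r of 0.78 and 0.75. The genes whose levels followed Entpd2 most closely over the 12 libraries were Hspa2, Decr2 and Enpp5, with r of 0.99, 0.98 and 0.97. They had r of 0.85, 0.68 and 0.80 over the 8 siRNA libraries.

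The level of some members differed between the experiments, which were quantified separately and differ in transfection, so no test was made. The study's siRNA timeline, given for its calcium assays, also had another seeding density and less time in low serum. All siRNA libraries lay above all flow and static libraries for P2rx4, P2ry2 and Adora2b, whose means were 2.47, 3.62 and 3.18 times as high. Of 10895 genes that averaged 1 TPM or more in both, 26.3% lay entirely above and 26.0% entirely below. Ranges of the other 6 members overlapped between the experiments, with Entpd2 at 0.806 and P2rx7 at 0.685 times the flow experiment's mean. Among the genes of the pathway, Lrrc8a was 10.5 times as high in the siRNA experiment. For P2rx4, P2ry2 and Adora2b the siRNA libraries also lay above the 6 flow libraries taken alone, and by the study both were under flow. Experiment and transfection cannot be told apart in this comparison.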

How the data were processed

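RNA-seq libraries of DC2 cells were analysed from 2 deposited tables, 6 flow and 6 static libraries in the first and 4 Ift88 siRNA and 4 control siRNA libraries in the second. The deposited values are TPM that the authors computed. By the study's methods, trimmed reads of directional libraries were quantified by kallisto against Ensembl transcripts and summed to genes by tximport. The submitters' processing notes name fastp 0.20.0, FastQC 0.11.8, MultiQC 1.8 and kallisto 0.46.2. TPM hold no read total, so counting error and depth per library are unknown, and no count test was run. A rise of a few abundant genes lowers the TPM of all others. Of the genes, 78 had no symbol. Groups follow the sample titles.

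From the TPM, log2(TPM + 1) was compared with limma 3.58.1 (R 4.3.3, lmFit and eBayes with trend, two-sided) over all genes that averaged 1 TPM or more, each table by itself, with Benjamini-Hochberg adjustment over all genes tested. A gene was called at an adjusted p under 0.05 and more than 1.5-fold. Since 1 was added before the log, the fold changes given understate those of low genes. When tested on simulated tables in which 200 genes moved by 1 log2 unit, 92.5% were recovered for flow against static (11388 genes, 2.12% false calls), 95.5% in the blocked fit (11388 genes, 2.05% false) and 96% for Ift88 siRNA against control siRNA (11209 genes, 0.518% false). These rates hold for that shift only and are not rates for any member. The members' log2 fold changes ran from -0.30 to 0.36 over both comparisons, and shifts of that size were not simulated.

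Deviations of same-numbered flow and static libraries from their group means correlated at 0.294, 0.463, 0.425, 0.468, 0.662 and 0.600 (replicates 1 to 6), and were therefore treated as pairs, a pairing that comes from the data and that the methods do not name. The main comparison has no block.

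The members and the lists of 87 pathway genes were chosen with earlier results of these data known. Genes are named if they are members, list genes with an adjusted p under 0.05 in the main or blocked fit (there were none), the highest gene of each list, Ccn2, Ift88, or the 3 genes most like the member with the smallest p under flow. Others are given as named after their values were seen. Alternatives covered a pseudocount of 0.1, the low-TPM filter, library weights, median-of-ratios scaling, the replicate block, each library left out, replicates 1 to 3 and 4 to 6 alone and the label of flow replicate 6. Gene positions are from GENCODE M21 (GRCm38) and promoters from RefSeq (GRCm38.p6), in which all 9 members were found; the authors used a newer annotation (Ensembl), and no position was converted. Python 3.11.15 with pandas 2.3.3, numpy 2.4.6, scipy 1.17.1 and matplotlib 3.10.9 served for all other steps. The values of 2 connexins that are no members are not reported here.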

Additional observations from a re-analysis of the deposited data

Results flagged for a closer look

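Among the members and Ift88, 5 values stood far from the rest of their group by Dixon's criterion, all of members, in 39 groups of 4 or 6 libraries tested, where chance alone marks about 1 in 20 groups. Nt5e was at 5.02 TPM in flow replicate 2, the highest of its group. P2rx4 was at 288 TPM in Ift88 siRNA replicate 4, below the other 3 libraries. Adora2b was at 9.28 TPM in control siRNA replicate 3, also the lowest of its group. Gjb2 was at 0.0290 TPM in flow replicate 2 and at 0.120 TPM in Ift88 siRNA replicate 4, each the 1 library of its group not listed at 0. Any value above 0 would have been marked in those groups.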

How the results depend on the processing

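None of the 8 members tested was called by limma under any alternative run, in either comparison. Of the members' log2 fold changes, 160 of 184 under flow alternatives and 107 of 112 under siRNA alternatives kept direction and call, and 24 and 5 turned sign. Turned values other than from single libraries left out were 0.0063 (P2rx4) and 0.0101 (Adora2b) with median-of-ratios scaling, 0.0167 (Adora2b, flow) and 0.0202 (Panx1, siRNA) with library weights, 0.0065 (Adora2b) with flow replicate 6 counted as static, 0.15 (Adora2b) in replicates 1 to 3, and -0.0011 (Gja1), 0.0163 (P2rx4) and 0.0281 (P2ry2) in replicates 4 to 6. Leaving out single libraries gave -0.0965 to 0.12 for Gja1, -0.0832 to 0.0288 for P2rx4, -0.24 to 0.12 for P2rx7 and -0.0727 to 0.0262 for Adora2b under flow, and -0.46 to 0.0373 for Panx1 and -0.0911 to 0.0125 for Adora2b with siRNA. Members with an unadjusted p under 0.05 under flow numbered 0 in the main fit, 2 with library weights, 1 with the replicate block, 0 to 2 with single libraries left out (2 without flow replicate 2), and, in alternatives chosen after seeing the data, 1 without replicate pair 2 and 2 without it with the block. Over all genes such p-values also became more frequent, with 711 higher and 1757 lower of 11388 genes with library weights. Without flow replicate 2 they were found for 558 higher and 971 lower of 11373 genes. Without replicate pair 2 they were found for 412 and 709 of 11362 genes, and for 916 and 1946 with the block. That last fit had 1 member (Entpd2) and 2 pathway genes below an adjusted p of 0.05 and called 1 pathway gene, which is no member. With siRNA the members with an unadjusted p under 0.05 numbered 2 in the main fit, or 1 to 2 with single libraries left out, with 1 without control siRNA replicate 1, 2 or 4. P2rx4 joined Entpd2 and Gja1 below that threshold with library weights, and also with the replicate block. Members below an adjusted p of 0.05 numbered 0, and 1 with library weights; pathway genes numbered 0, 1 with those weights and 1 with median-of-ratios scaling. The cause of these shifts was not tested. Same-numbered siRNA libraries correlated at 0.046, 0.0028, 0.26 and 0.18 and were not taken as pairs; their replicate block called 32 genes higher and 12 lower, against 17 and 8 without it, and no member. Flow replicate 3 correlated more with another number (0.51). Over all genes, flow calls were 12 (all higher) in the main fit, 68 with the replicate block, 28 with median-of-ratios scaling, 75 higher and 11 lower with weights, 76 and 11 without flow replicate 2, 2 with no low-TPM filter and 0 with flow replicate 6 counted as static. The siRNA calls were 17 higher and 8 lower, and 12 and 10 with median-of-ratios scaling. Gjb2, below the filter, was tested only without it, at log2 fold changes of -0.0074 (flow) and 0.04 (siRNA), with most libraries at 0.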
